A study of Mus musculus with 6 samples.

Results

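Barcodes with RNA of Pax2 together with a second gene of the mesonephric tubules and ducts were collected from the 5 in vivo gonad libraries. Barcodes were kept from 500 detected genes upwards where mitochondrial UMIs did not pass 10%. Members were chosen by measured UMIs of 6 genes: a member was a kept barcode with at least 1 Pax2 UMI and at least 1 UMI of any of 5 partner genes, Pax8, Lhx1, Wfdc2, Gata3 and Epcam. Barcodes with 3 or more UMIs summed over the germ cell genes Dazl, Ddx4, Dppa3, Dppa5a and Pou5f1 were left out. The rule found 166 members among 21102 kept barcodes (0.787%, exact 95% interval 0.672 to 0.915%). Of the members, 127 came from E10.5 and 39 from the other 4 libraries together.

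The series compared single cells of XX gonads of ICR mice at E10.5, E11.5, E12.5, E13.5 and E14.5 with gonad-like somatic cells made from embryonic stem cells. The labels name no allele or agent for the in vivo groups. The induced group (129svj x C57BL/6J cells, culture day 6) was grown as aggregates in 3 steps of 2 days. CHIR was given with BMP4 and EGF in the first step. SHH, retinoic acid and PD0325901 were given beside BMP4 and EGF in the next, and FGF9 beside BMP4 in the last. Each group is 1 library, so no difference between stages could be tested and stage cannot be told apart from library. Intervals are exact 95% intervals and cover counting error only, since the cells of a library are not replicates.

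The nephric (Wolffian) duct forms in the intermediate mesoderm beside the future gonad, grows towards the tail of the embryo and induces the neighbouring nephrogenic mesenchyme to form the mesonephric tubules. The paired-box factors Pax2 and Pax8, the LIM homeobox factor Lhx1 and the zinc finger factor Gata3 act in this lineage, Epcam and Wfdc2 mark its epithelium, and Wnt9b from the duct and Wnt4 in the tubules act in tubule formation. In XX embryos the duct and tubules largely regress, since no androgen maintains them.

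Promoters of 3 genes are shown because the description of the E10.5 members turns on them. Lhx1 and Gata3 are partner genes of the rule, so their excess in members was set by the rule. The lncRNA Lhx1os, which starts beside Lhx1, was not used by the rule, and Gata3 and Wnt4 were high in different sets of E10.5 members. The sequences are from RefSeq for GRCm38.p6, from 250 bases before to 50 bases after an annotated start. The Lhx1 window is chr11:84525485-84525784 on the minus strand, and its capitals mark the 124 bases between the annotated start of Lhx1 (84525535, minus strand) and that of Lhx1os (84525660, plus strand). The Gata3 window is chr2:9878551-9878850 on the minus strand, inside the annotated span of the gene, and the Wnt4 window is chr4:137277385-137277684 on the plus strand. In these the capitals mark matches to GCCNNNGGC, the palindromic core bound by TFAP2 factors.
Lhx1 promoter: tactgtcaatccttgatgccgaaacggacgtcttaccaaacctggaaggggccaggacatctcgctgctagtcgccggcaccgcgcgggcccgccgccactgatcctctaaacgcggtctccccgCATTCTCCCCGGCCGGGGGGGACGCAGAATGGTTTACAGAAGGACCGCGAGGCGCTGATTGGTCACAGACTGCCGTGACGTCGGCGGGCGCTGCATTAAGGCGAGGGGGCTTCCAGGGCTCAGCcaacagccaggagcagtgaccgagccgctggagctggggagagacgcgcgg
Gata3 promoter: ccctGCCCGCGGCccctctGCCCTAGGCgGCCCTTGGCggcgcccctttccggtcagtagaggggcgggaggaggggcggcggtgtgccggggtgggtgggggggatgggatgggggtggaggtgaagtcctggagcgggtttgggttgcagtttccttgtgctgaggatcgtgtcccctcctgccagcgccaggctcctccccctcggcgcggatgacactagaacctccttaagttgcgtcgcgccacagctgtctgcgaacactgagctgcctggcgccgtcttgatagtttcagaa
Wnt4 promoter: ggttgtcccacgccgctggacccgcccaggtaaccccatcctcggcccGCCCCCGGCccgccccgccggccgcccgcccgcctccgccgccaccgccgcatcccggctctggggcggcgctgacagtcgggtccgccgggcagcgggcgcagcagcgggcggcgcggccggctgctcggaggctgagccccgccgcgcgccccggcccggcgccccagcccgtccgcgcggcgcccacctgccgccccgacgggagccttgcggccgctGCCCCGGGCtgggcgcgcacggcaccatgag
The Gata3 window held 3 matches and the Wnt4 window 2. The same core was in 16.6% of 32851 RefSeq promoter windows of this length, so a match is a description of the letters and not a binding site.

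Members made up 2.03% of kept barcodes at E10.5 (127 of 6259, 1.69 to 2.41%). At E11.5 the share was 0.331% (9 of 2720, 0.151 to 0.627%), and at E12.5 it was 0.339% (11 of 3249, 0.169 to 0.605%). At E13.5 it was 0.153% (7 of 4566, 0.0617 to 0.316%), and at E14.5 it was 0.279% (12 of 4308, 0.144 to 0.486%). The E10.5 interval lay above the other 4, which overlapped one another. With 1 library a stage this difference was not tested.

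The members' median depth was 7344 UMIs at E10.5, against 6517 in the other kept barcodes. At E11.5 it was 36611 against 11952 UMIs, at E12.5 10380 against 10131.5, at E13.5 17610 against 9425 and at E14.5 13897 against 7376.5. The rule counts single UMIs, and the members' median depth was the higher one at every stage. With every barcode thinned to 3000 UMIs before the rule was applied, the shares from E10.5 to E14.5 were 0.934%, 0%, 0.0313%, 0.0450% and 0.0761% (54, 0, 1, 2 and 3 barcodes). Libraries held 37606947 to 52146419 UMIs in 2766 to 7564 barcodes. Over all pairs of libraries 580 barcode sequences were shared, none of them between 2 members, and 9 members had a barcode sequence that was also seen in another library.

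**Figure D1:**
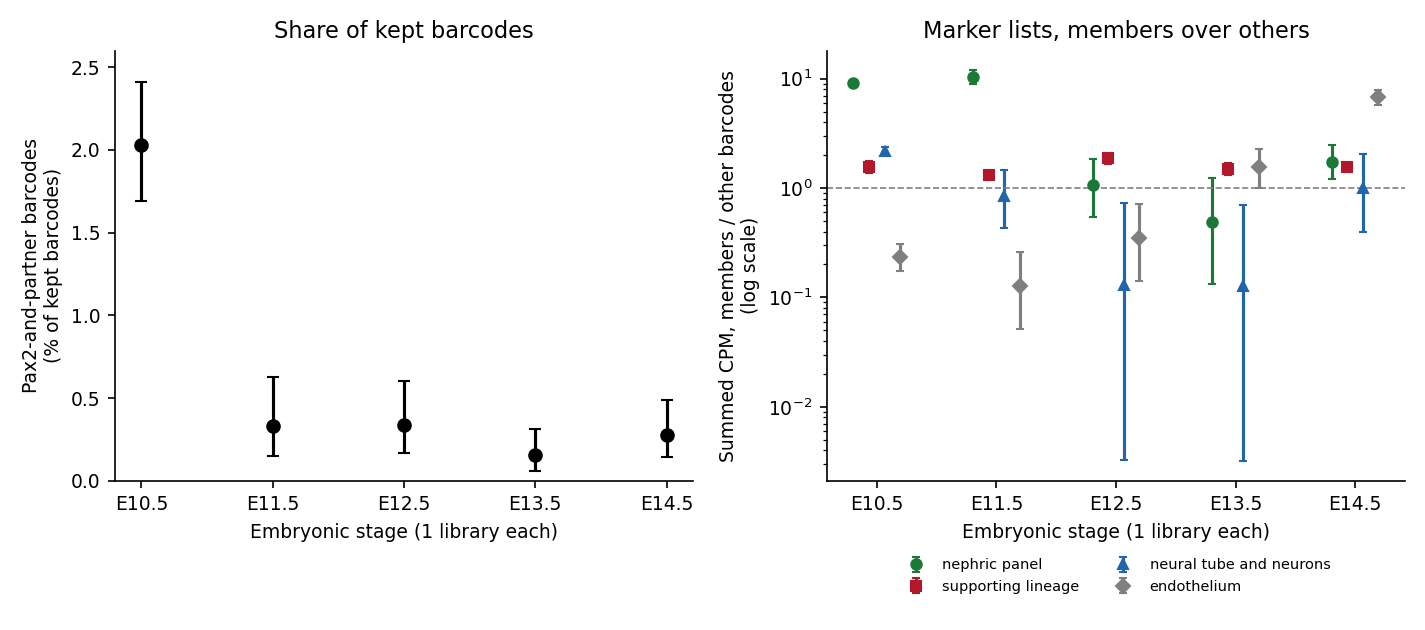
Left, members as a percent of kept barcodes at each embryonic stage, 1 library each, with exact 95% intervals. Right, summed CPM of 4 marker lists in members over other kept barcodes (log scale; dashed line, a ratio of 1), where the nephric panel is at 9.09 and 10.4 at E10.5 and E11.5 and between 0.486 and 1.74 afterwards.

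Whether members were mesonephric was checked with a nephric panel of 21 duct and tubule genes that are neither in the rule nor on a marker list of another cell type, among them Cdh16, Cldn7, Wnt9b, Ret, Irx1 and Lrp2. At E10.5 all 21 genes were detected in members, and the summed level was 852 CPM (UMIs per 1000000 UMIs of the summed barcodes) against 93.7 CPM in the others, a ratio of 9.09 (8.47 to 9.76). At least 3 panel UMIs were present in 76 of the 127 E10.5 members, and in 5 of 9, 2 of 11, 0 of 7 and 4 of 12 members from E11.5 to E14.5. Other kept barcodes reached this count in 7.19% (E10.5), 12.8% (E11.5), 9.48% (E12.5), 6.87% (E13.5) and 5.89% (E14.5) of cases. Their median depth was lower than that of members at each stage. At E11.5 the ratio was 10.4 (8.99 to 11.9), but 178 of the 217 UMIs were in 1 barcode, and without it the ratio was 2.20 (1.56 to 3.02). At E12.5 the ratio was 1.06 (0.547 to 1.85) with 17 of the 21 genes at 0 in members, and without the barcode with most panel UMIs it was 0.494 (0.160 to 1.15). At E13.5 it was 0.486 (0.132 to 1.25) with 17 at 0, and at E14.5 it was 1.74 (1.20 to 2.45) with 13 at 0, or 1.33 (0.812 to 2.06) without 1 barcode. The name mesonephric therefore held for many E10.5 members and for single later barcodes, and it did not hold for the members at E12.5 to E14.5 as a set, which are called here by the rule.

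The members were selected on the 6 genes of the rule, so the levels of these are a description. Pax2 stood at 172 CPM in E10.5 members and 0.907 CPM in the other barcodes, and at 39.8, 81.6, 55.1 and 44.4 CPM in the members from E11.5 to E14.5. At E10.5, 82 members had 1 Pax2 UMI and 45 had more, up to 5. In the later libraries 36 of 39 members had exactly 1. Just outside the rule, 33, 6, 23, 28 and 26 kept barcodes from E10.5 to E14.5 had Pax2 and no partner, and 1290, 475, 428, 481 and 402 had a partner and no Pax2. The germ cell limit removed 0, 1, 1, 19 and 1 barcodes that otherwise passed. At E10.5, 36 members had 1 partner gene, 27 had 2 and 64 had 3 or more.

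Wfdc2, which encodes a secreted protease-inhibitor-like protein of epithelia, had UMIs in 98 of the 127 E10.5 members and stood at 388 CPM against 22.6 CPM in the others. Epcam, an adhesion molecule of epithelia, had UMIs in 66 members (223 against 26.2 CPM). Gata3 had UMIs in 52 (129 against 17.1 CPM), Lhx1 in 51 (105.04 against 3.10 CPM) and Pax8 in 49 (68.2 against 2.23 CPM). Wfdc2 was thus the partner of most E10.5 members. Thinned to 3000 UMIs, which left 124 E10.5 members and left out 3, Pax2 was present in 62 members, Wfdc2 in 58.1% (77.2%), Gata3 in 27.4% (40.9%) and Lhx1 in 23.4% (40.2%). Endothelial barcodes (at least 1 Cdh5 and 1 Pecam1 UMI, 140 thinned, 2 left out, median depth 12230.5 UMIs) were taken as a background. In them the thinned shares of these 4 genes were 0.714%, 2.14%, 3.57% and 0%, and unthinned 0.704%, 5.63%, 12.7% and 0%. For Gata3 the shares in the other kept barcodes were 5.06% thinned and 8.33% unthinned, so the endothelial share is not a noise level for Gata3.

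In later members the partner was often Pax8, with UMIs in 5 of 9 members at E11.5, 8 of 11 at E12.5, 1 of 7 at E13.5 and 7 of 12 at E14.5. Lhx1 had UMIs in 0, 1, 0 and 2 of these members, and Gata3 in 2, 1, 1 and 3. Epcam stood at 32.5, 20.4, 47.2 and 22.2 CPM in members from E11.5 to E14.5, against 54.8, 70.6, 47.2 and 16.6 CPM in the other barcodes. It was therefore not raised over the rest of the library at E11.5 to E13.5, although the rule used it.

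The rule genes lie on 4 chromosomes of GRCm38. Pax2 is on chromosome 19 (44756045 to 44837871, plus strand) and Lhx1 on chromosome 11 (84518284 to 84525535, minus strand). Pax8, Wfdc2 and Gata3 are on chromosome 2, at 24420560 to 24475599 (minus strand), 164562413 to 164568510 (plus strand) and 9857078 to 9890034 (minus strand). Epcam is on chromosome 17 (87635979 to 87651129, plus strand). All 6 are annotated as protein-coding.

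For the E10.5 members against the 6132 other E10.5 barcodes, 3081 genes reached 50 CPM in either sum, with the rule genes left out. Of these, 44 stood at least 4-fold above the others (1.43%) and 6 at least 4-fold below (0.195%), and the median log2 ratio of all 3081 was -0.01. The counts depend on the members taken: without those with neural or muscle markers, left out after the values were seen, they were 52 and 45, and in the duct-like cluster described below 88 and 60. These genes come from the same cells that the rule picked, so the ratios describe the members and are not tests. By role, the higher genes included junction and polarity genes of epithelia, transcription factors of the nephric lineage and Wnt pathway genes. They also included Nhlh2, 1 of the 4 genes compared from the marker list of neural tube and neurons. The lower genes included a collagen and other mesenchymal genes, and genes of endothelium, platelets and muscle.

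The largest ratio was that of Clec18a, which encodes a C-type lectin-domain protein: 57 UMIs in 29 members, 51.2 against 1.17 CPM, 43.7-fold (29.5 to 64.7). Mal, a membrane proteolipid of apical transport in epithelia, followed at 34.0-fold (23.9 to 48.3), with 62 UMIs in 35 members. The lncRNA Lhx1os stood at 97.0 against 3.21 CPM, 30.2-fold (23.3 to 39.1). Calb1, the calcium-binding protein calbindin, stood at 279 against 9.60 CPM, 29.1-fold (25.1 to 33.7), with 311 UMIs in 41 members and up to 33 in 1 barcode. The other 6 of the 10 largest were Cldn8, a claudin of tight junctions, 21.3-fold (15.8 to 28.6), the elastase-family protease Cela1, 19.2-fold (14.7 to 24.9), the apical polarity gene Crb3, 18.6-fold (13.7 to 24.8), the receptor adaptor Grb7, 14.1-fold (10.3 to 19.0), the septin Sept4, 13.8-fold (10.4 to 18.1), and the secreted Wnt inhibitor Dkk1, 13.53-fold (9.87 to 18.3). Each of the 10 had UMIs in 29 to 44 of the 127 members, but at these levels and a median depth of 7344 UMIs a barcode without a UMI may still express the gene. Clec18a lies on chromosome 8 (111058920 to 111092426, minus strand), Mal on chromosome 2 (127633226 to 127656695, minus strand) and Calb1 on chromosome 4 (15881264 to 15908064, plus strand).

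Lhx1os starts beside Lhx1 and runs the other way, and the annotated genes do not overlap. Among E10.5 members 27 had UMIs of both, 24 of Lhx1 alone, 17 of Lhx1os alone and 59 of neither. In the other 6132 barcodes the counts were 27, 48, 76 and 5981. Members with neural markers held much of both transcripts: 61 of the 117 Lhx1 UMIs and 57 of the 108 Lhx1os UMIs were in 20 members with 3 or more UMIs of the neural list. Without members with neural or muscle markers the log2 ratio of Lhx1os was 3.74 instead of 4.92.

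Of the 10 lowest ratios, that of the platelet gene Pf4 was lowest, 32.7-fold lower in members (11.2 to 159) on 3 UMIs. The endothelial claudin Cldn5 was 8.06-fold lower (3.90 to 20.1), skeletal muscle actin Acta1 7.31-fold (3.84 to 16.0) and the type I collagen chain Col1a2 5.30-fold (3.21 to 9.49). Igf1 was 4.53-fold lower (2.86 to 7.66) and the mesenchymal factor Twist2 4.12-fold (2.45 to 7.55). Pcolce, which helps to mature collagens, Gap43 of growing axons, the receptor partner Ramp2 and the mesenchymal factor Prrx1 were 3.95-fold, 3.94-fold, 3.58-fold and 3.52-fold lower. The 3984 Pf4 UMIs outside the members were in 1.70% of the other barcodes, and 2.36% of members had a Pf4 UMI. The shares with a UMI in members and others were also close for Acta1 (3.15% and 2.58%), Ramp2 (12.6% and 11.8%) and Cldn5 (3.15% and 4.35%). For Col1a2 (7.09% and 31.1%), Igf1, Twist2, Pcolce, Gap43 and Prrx1 the share was lower in members. With every barcode thinned to 3000 UMIs before the rule was applied, Pf4 was at -1.83, Cldn5 at -0.83 and Igf1 at -1.98 in log2, inside 4-fold.

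**Figure D2:**
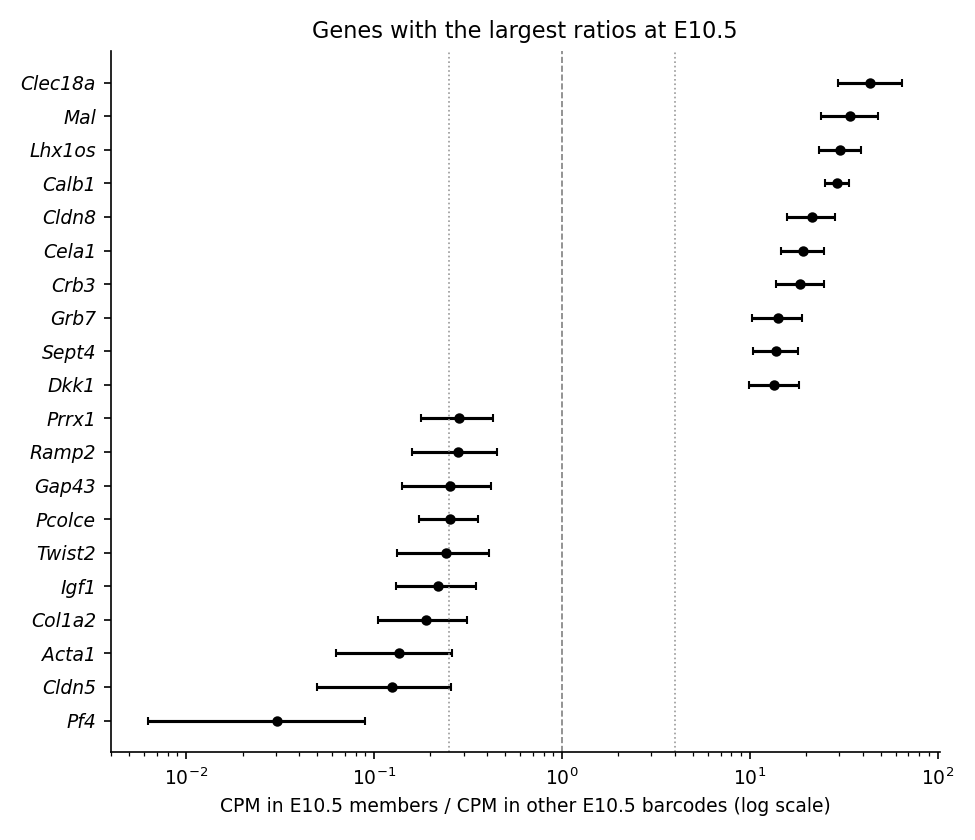
CPM in E10.5 members over CPM in the other E10.5 barcodes (log scale) for the 10 genes with the largest and the 10 with the smallest ratio among genes at 50 CPM or more, with exact 95% intervals from counts. Dotted lines mark 4-fold and the dashed line a ratio of 1; the upper 10 lie between 13.53 and 43.7, and Pf4 is lowest at 0.0306.

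Among 30 transcription factors of the nephric lineage, 4 are rule genes and 6 others reached the level for a ratio at E10.5: 3 were at least 4-fold higher, none lower, and the median log2 ratio was 1.93. Osr2 was 8.51-fold higher (50.3 against 5.90 CPM), Emx2 4.59-fold (156 against 34.0 CPM) and Tfap2b 4.07-fold (57.5 against 14.1 CPM). Mecom stood at 3.56-fold, Wt1 at 1.13-fold and Sox9 at 0.754. Below the level filter, Irx1, a factor of developing nephron tubules, was 12.6-fold higher on 13 UMIs in 9 members. Of these UMIs, 5 were in 1 barcode, and most of the other members with Irx1 had 3 or more UMIs of the neural or of the muscle marker list. That ratio therefore does not describe nephric barcodes alone.

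Of 32 epithelial junction and keratin genes, 7 could be compared besides Epcam: 5 were at least 4-fold higher and none lower, with a median of 3.11. Cldn7 was 12.47-fold higher (10.52 to 14.7), with UMIs in 64 members, and Cldn6 8.63-fold, with UMIs in 65. Spint2, an inhibitor of membrane proteases, was 5.99-fold higher and had UMIs in 82 members. Crb3 and Cldn8 were given above. The keratins Krt8 and Krt18 stood at 2.30-fold and 1.72-fold. Below the filter, the kidney cadherin Cdh16 was 54.7-fold higher (30.9 to 98.3), on 31 UMIs in 23 members.

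The mesenchymal list stood the other way: of 8 genes compared, 1 was at least 4-fold lower (Col1a2), none was higher, and the median was -1.68. Vim stood at 154 CPM in members and 464 CPM in the others, Col3a1 at 27.8 and 94.3, and Twist1 at 17.1 and 58.2. Fibronectin (Fn1) at 0.971 and N-cadherin (Cdh2) at 0.917 were near a ratio of 1. The list was thus uneven, with collagens and vimentin low and these adhesion genes near the level of the others.

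Among 22 Wnt pathway genes, 4 were compared and 3 were higher, with a median of 2.41: Dkk1, Sfrp2 at 6.79-fold (250 against 36.8 CPM) and the ligand Wnt4 at 4.14-fold (3.36 to 5.05). Sfrp1, another secreted Wnt inhibitor, was at 0.333. The duct ligand Wnt9b, below the filter, was 38.7-fold higher (19.9 to 74.9) on 20 UMIs in 16 members. In the RET and GDNF list 3 of 13 genes were compared and none passed 4-fold (median 0.07). The receptor Ret, which drives outgrowth from the duct, was 5.45-fold higher (2.62 to 10.3), but on 11 UMIs in 10 members.

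Of the transport genes of nephron segments, 3 of 23 were compared: Calb1 and the sodium pump subunit Atp1b1 (7.99-fold) were higher and Car2 was at 0.727 (median 3.00). In the BMP and TGF-beta list 1 of 7 was higher, Id4 at 4.13-fold (median 0.34), and in retinoic acid metabolism 1 of 5, Rdh10 at 4.87-fold (median 0.45). Of 12 Hox genes compared 1 was higher, Hoxb6 at 4.56-fold (median 0.80). The lists of Notch (1 compared), FGF (2), basement membrane (2) and p53 genes (5) had no gene past 4-fold, and no sex steroid receptor or polycystic and ciliary gene reached 50 CPM. Of the cell cycle genes, 0 of 18 S phase and 0 of 19 G2/M genes passed 4-fold, with medians of -0.25 and -0.19. The lists were chosen with earlier results of these data known, so their counts are descriptions.

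Among the promoters of the 44 higher genes, 31 genes with 42 RefSeq windows could be matched. GCCNNNGGC was in 8 of the 42 (19.0%) against 16.6% of all windows. The core of zinc finger GATA factors, AGATAA, was in 4 (9.52% against 11.2%). The HNF1 half-site, GTTAAT, was in 2 (4.76% against 7.10%). The TATA box, TATAAA, was in 5 (11.9% against 13.6%). Both strands were searched. The 4 shares were within a few percent of those of all windows.

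Clustering of the 166 members gave 3 clusters. Cluster 1 held 58 members (34.9%, 27.7 to 42.7%), 57 from E10.5 and 1 from E11.5. Its leading genes included Cldn3, Sim1 and Cldn7 of the nephric duct markers, and it is called nephric-duct-like. Cluster 2 held 36 members (21.7%, 15.7 to 28.7%), none from E10.5 and 7, 10, 7 and 12 from the later stages in order. Its leading genes included Amhr2 and Gata4, and it is called supporting-lineage-like, after the somatic lineage that gives granulosa cells. The supporting-lineage list stood at 1992 CPM in this cluster and the coelomic epithelium list at 353 CPM. The name covers its members unevenly. In E13.5 members, all in this cluster, the coelomic list stood at 638 CPM, against 225 CPM in the other E13.5 barcodes. In E11.5, E12.5 and E14.5 members it stood at 289, 184 and 300 CPM, against 504, 385 and 254 CPM. Cluster 0, with 72 members (43.4%, 35.7 to 51.3%), 70 of them from E10.5, was led by neuronal and muscle genes (Nefm, Ina, Tubb3, Actc1) and was given no name. The clusters were formed from the same genes, so differences between them are descriptions.

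The E10.5 members therefore fell into 57 nephric-duct-like and 70 unnamed barcodes of like depth, with medians of 6910 and 7565 UMIs. All 57 duct-like members had at least 3 nephric panel UMIs (3 to 49, median 12), and 19 of the 70 unnamed ones did (0 to 12, median 1). Of the unnamed members, 26 had 3 or more UMIs of the neural list or of the paraxial mesoderm and muscle list. Leaving those out, a choice made after the values were seen, gives 44 members with neither, described below beside the duct-like ones.

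**Figure D3:**
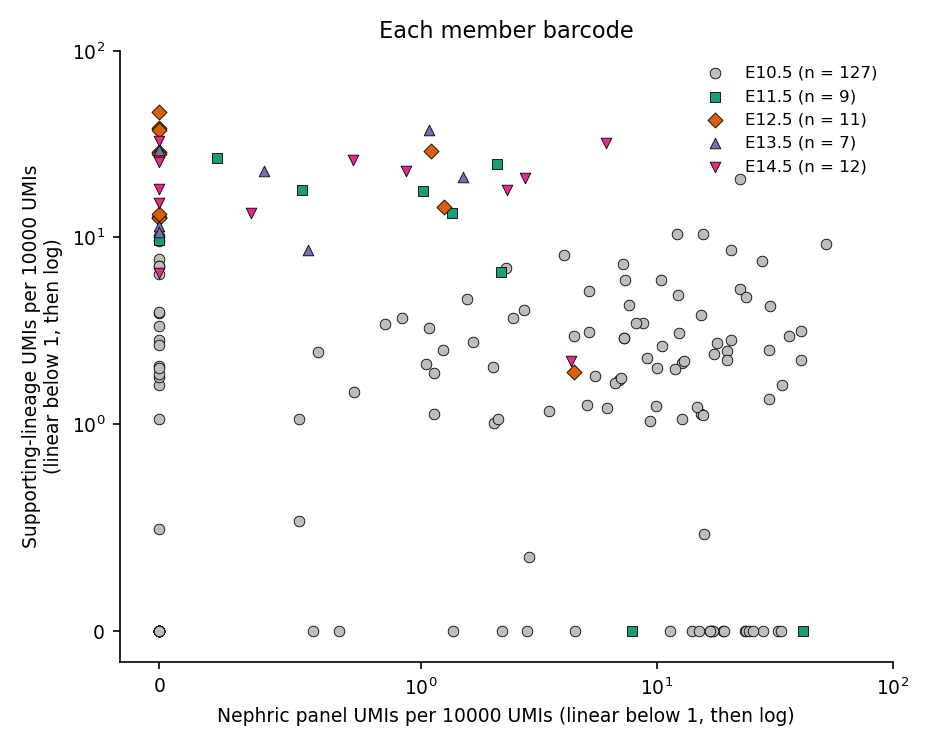
Each of the 166 members by its nephric panel UMIs (x) and supporting-lineage UMIs (y), both per 10000 UMIs of the barcode and on axes that are linear below 1 and logarithmic above. E10.5 members (grey) spread along the x axis, while 28 of the 30 members of E12.5 to E14.5 have more supporting-lineage than nephric panel UMIs and 2 lie among the E10.5 members; 2 E11.5 members are at the bottom with no supporting-lineage UMI.

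The partner genes followed this split. Of the 52 E10.5 members with Gata3, 47 were duct-like, as were 50 of the 66 with Epcam and 56 of the 98 with Wfdc2. Pax8 and Lhx1 were spread over both, with 18 duct-like and 31 unnamed members for Pax8 and 18 and 33 for Lhx1. Lhx1 was the only partner in 11 members, of which none was duct-like and 8 had neural markers. A barcode that passed with Lhx1 alone was therefore in most cases one with neuronal RNA.

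In the duct-like members Gata3 stood at 306 CPM (0 to 8 UMIs, median 2, present in 47 of 57), against 8.23 CPM in the 44 members and 17.1 CPM in all other E10.5 barcodes. Emx2 stood at 339, 46.7 and 34.0 CPM in the same order, and the bHLH-PAS factor Sim1 at 66.0, 2.74 and 3.80 CPM. Tfap2b stood at 130, 2.74 and 14.1 CPM. Tfap2a, its relative, had 24 UMIs in 16 duct-like members and none in the 70 unnamed ones, which allows at most 4.55 CPM there (3 counts). In the 44 members Gata3, Sim1 and Tfap2b were thus no higher than in unselected barcodes.

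Calb1 was almost confined to duct-like members among the 127, with 310 of its 311 UMIs there (682 CPM, 0 to 33 UMIs, median 2, present in 40 of 57). Cldn7 had UMIs in all 57 (387 CPM, 1 to 10, median 3) and in 6 of the 44 (27.4 CPM). Mal (62 UMIs), Cldn8 (72), Cdh16 (31) and Wnt9b (20) had no UMI outside the duct-like members, which allows at most 4.55 CPM in the unnamed 70. Epcam stood at 490 and 60.4 CPM in duct-like members and in the 44, Krt8 at 222 and 8.23, and E-cadherin (Cdh1) at 41.8 and 8.23. Ret had 10 of its 11 UMIs in duct-like members. Kitl, the ligand of Kit, stood at 108 CPM in duct-like members and 2.74 CPM in the 44, and Cited1 at 185 and 2.74 CPM.

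A finer clustering (resolution 1) placed the 57 duct-like members of E10.5 in a group of 34 (median 8127 UMIs) and a group of 23 (median 5083 UMIs), and of the lists with UMIs in both groups the G2/M genes had the largest ratio. The paraxial mesoderm and muscle list had 15 UMIs in the 34 and 0 in the 23. The G2/M list, genes used for mitosis, stood at 4135 CPM in the 34 and 559 CPM in the 23, a ratio of 7.40 (5.95 to 9.32). The S phase list, genes used for DNA replication, stood at 2357 and 845 CPM, a ratio of 2.79 (2.31 to 3.39). Mki67, a marker of proliferating cells, had UMIs in 15 of the 34 and 2 of the 23. Ccnb1, the cyclin of mitotic entry, had UMIs in 24 and 2 and stood at 239 and 12.99 CPM. The DNA topoisomerase Top2a, with 0 to 18 and 0 to 5 UMIs a barcode, stood at 332 and 90.96 CPM. Btg2, an antiproliferative gene, had the opposite order (83.1 and 468 CPM, in 12 of 34 and 17 of 23 barcodes).

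Several genes of epithelia and of the duct were at like levels in the 2 groups or stood higher in the 23. Cldn7 had UMIs in every barcode of both and stood at 386 and 390 CPM, and Epcam stood at 479 and 513 CPM. In the 23 members Wnt9b, the duct signal to nephrogenic mesenchyme, stood at 90.96 CPM against 19.9 CPM (14 and 6 UMIs), the cadherin Cdh16 at 123 against 39.9 CPM, the endocytic receptor Lrp2 at 64.97 against 6.65 CPM (10 and 2 UMIs) and Mal at 234 against 86.4 CPM. In the 34 members Tfap2b was higher, at 156 against 78.0 CPM. Ret, the GDNF receptor of the duct, had 9 UMIs in 8 of the 34 and 1 UMI in the 23, and the interval of its ratio (0.638 to 202) includes 1. These groups were formed from the same counts and differ in depth, so the values describe them and were not tested.

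In the 44 members another set of genes was high. Wnt4 stood at 236 CPM (0 to 6 UMIs, median 2, present in 34 of 44), against 4.40 CPM in duct-like members (1 of 57) and 23.2 CPM in the other barcodes. Wt1, a zinc finger factor of nephron progenitors and of the coelomic epithelium, stood at 126 CPM in 27 of the 44. It had no UMI in the 57 duct-like members, which allows at most 6.60 CPM, and stood at 49.1 CPM in the others. Sfrp2 stood at 563 CPM in the 44 members, 96.8 CPM in duct-like ones and 36.8 CPM in the others, and Osr2 at 115, 13.2 and 5.90 CPM. Cdh6, a cadherin of early nephrons, stood at 65.9, 6.60 and 18.5 CPM, and Eya1, a cofactor of nephron progenitors, at 49.4, 0 and 6.94 CPM. Osr1 at 57.6 CPM and Car4 at 74.1 CPM followed the same order. Without its 2 rule genes (Pax8 and Lhx1), the mesonephric tubule list of 12 other genes stood at 505 CPM in the 44, 259 CPM in duct-like members and 59.1 CPM in the others. Most of the sum in the 44 was of Wnt4, Osr2 and Cdh6, given above. The rest of the list was together lower in the 44 than in duct-like members, and Cdh16, which is on it, had UMIs in duct-like members only. The nephrogenic mesenchyme list, to which Eya1, Osr1 and Cited1 belong, was not higher as a whole, at 189 CPM in the 44, 222 CPM in duct-like members and 192 CPM in the others.

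Some genes were detected in both kinds of member. Pax8 stood at 110 CPM in the 44 and 48.4 CPM in duct-like members, Lhx1 at 85.1 and 55.0 CPM, and Clec18a at 98.8 and 39.6 CPM, against 2.23, 3.10 and 1.17 CPM in the other barcodes. Wfdc2 stood at 305 and 669 CPM, against 22.6. Pax8, Lhx1 and Wfdc2 are partner genes of the rule, so their excess over the other barcodes was set by the choice of members. Clec18a was not used by the rule.

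Signalling lists did not all differ in 1 direction between the 44 and the duct-like members. The Wnt list stood at 1112 and 554 CPM, the BMP and TGF-beta list at 2660 and 1432, retinoic acid metabolism at 1414 and 708, the Notch list at 393 and 310, the FGF list at 354 and 334, and the RET and GDNF list at 209 and 429 CPM. Single genes are given as examples. Of retinoic acid genes, Aldh1a2, which makes retinoic acid, stood at 118 CPM in the 44 members and 2.20 in duct-like ones, and Rdh10 stood at 145 and 39.6 CPM. Bmp4 stood at 132 and 19.8 CPM and the BMP target Id1 at 379 and 72.6 CPM. The Notch target Hey1 stood at 65.9 and 4.40 CPM. Hox genes differed by cluster and paralogue: Hoxb6, Hoxd1 and Hoxd8 were higher in duct-like members (158, 28.6 and 66.0 CPM against 49.4, 0 and 8.23), while Hoxc6, Hoxc8, Hoxc9 and Hoxc10 were higher in the 44 (76.9, 121, 184 and 85.1 CPM against 24.2, 26.4, 13.2 and 4.40). For Hoxc9 the other barcodes stood at 113 CPM, between the 2 sets.

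**Figure D4:**
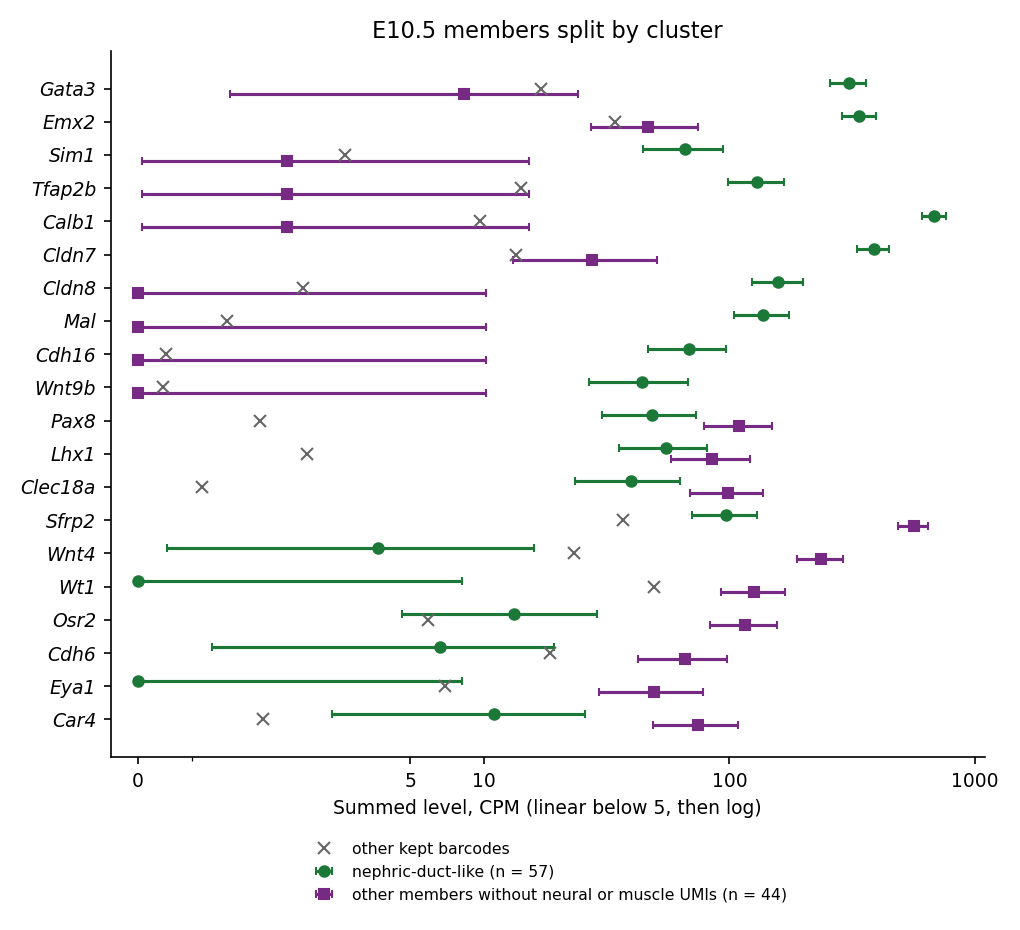
Summed level of 20 genes (CPM, linear below 5 and logarithmic above) in the 57 nephric-duct-like E10.5 members (green), in the 44 other members without neural or muscle UMIs (purple) and in all other E10.5 barcodes (crosses), with exact Poisson intervals for the member sums. Gata3 to Wnt9b are higher in the duct-like members, Sfrp2 to Car4 in the 44, and Clec18a stands above the other barcodes in both, as do the rule genes Pax8 and Lhx1, on which members were selected.

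Markers of other cell types were present in E10.5 members. The neural list had 16 of 18 genes detected and stood at 608 CPM in members against 279 CPM in the others; 20 members had 3 or more of its UMIs, and Lbx1 and Tlx3 were at 0. In duct-like members that list stood at 8.80 CPM and in the 44 members at 24.7 CPM. The paraxial mesoderm and muscle list had 9 of 10 genes detected, with 12 members at 3 UMIs or more and 168 against 303 CPM. Haemoglobin and other erythroid genes stood at 15846 CPM in the unnamed members, up to 5712 UMIs in 1 barcode, at 216 CPM in duct-like members and at 15440 CPM in the others. The endothelial list stood at 45.8 against 194 CPM, with Tie1 and Esam at 0, and germ cell genes had no UMI. The part of neural, muscle and erythroid RNA in the results for all 127 members was not tested, while in the duct-like members those lists were low.

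Doublets were not removed. Scrublet's automatic threshold called 0.0160% of E10.5 barcodes and was not used. Of the top-scored 5.01% of E10.5 barcodes, 15 were members, which is 11.8% of the 127. Without the top-scored barcodes 19 genes rather than 6 were at least 4-fold lower. The part of doublets in the members' levels was not otherwise tested.

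As a set, the 39 members at E11.5 to E14.5 carried genes of the gonadal supporting lineage, as did other barcodes of these libraries. All 11 genes of that list were detected at each of the 4 stages, and 37 of the 39 members had 3 or more of its UMIs. Most other kept barcodes passed this cut too, although their median depth was lower at each stage. Their shares were 65.88% (E11.5), 65.97% (E12.5), 58.48% (E13.5) and 52.96% (E14.5). The list stood at 1497, 2277, 1787 and 1851 CPM in members from E11.5 to E14.5 and at 1143, 1223, 1198 and 1191 CPM in the others, with ratios of 1.31 (1.19 to 1.45), 1.86, 1.49 and 1.55 (1.42 to 1.70). Without the barcode with most of its UMIs the E11.5 ratio was 1.11 (0.987 to 1.25). Endothelial barcodes, defined as above by Cdh5 and Pecam1, held the list at 357 CPM (E11.5) and 162 CPM (E12.5). They held it at 1154 CPM (E13.5) and 1188.5 CPM (E14.5), near the level of the others. Its presence alone therefore does not set members apart at E13.5 and E14.5. At E10.5 the list stood at 232 CPM in members, on 258 UMIs of which 107 were of Wnt4, also a tubule gene, and the gonadal factors Nr5a1 and Foxl2 were at 0.

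Gata4, a gonadal zinc finger factor, stood at 108, 150, 55.1 and 107 CPM in members from E11.5 to E14.5, against 75.3, 65.6, 65.7 and 71.9 CPM in the others, and had 1 UMI in the 127 E10.5 members. Wt1 stood at 434, 347, 394 and 330 CPM in later members, against 314, 223, 187 and 234 CPM in the others. Amhr2, the receptor of anti-Mullerian hormone, stood at 206, 306, 102 and 99.96 CPM, against 182, 149, 62.8 and 65.3 CPM. Foxl2, a factor of pregranulosa cells, stood at 10.8, 27.2, 47.2 and 104 CPM, on 3, 4, 6 and 28 UMIs, against 6.35, 16.3, 50.2 and 43.2 CPM. Lhx9, a homeobox factor of the gonadal surface, stood at 221, 136, 331 and 185 CPM, against 330, 252, 119 and 116 CPM, and at 0 in E10.5 members. The other barcodes hold every cell type of a library, germ and blood cells included. In barcodes with Pax8 and neither Pax2 nor another partner, the supporting-lineage list stood at 2218 CPM at E11.5 and 2130 at E12.5. In the same class it stood at 1877 CPM at E13.5 and 1604 at E14.5. Members were lower than this class at E11.5 and E13.5 and higher at E12.5 and E14.5. In non-member barcodes with the mesothelial gene Upk3b the list stood at 788, 763, 1253 and 1418 CPM, below the members at each stage. These differences were not tested.

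Some nephric genes were at 0 in the same barcodes, while 4 of the 12 E14.5 members had 3 or more nephric panel UMIs (33.3% against 5.89% of the others, at median depths of 13897 and 7376.5 UMIs). In 1 of these all 4 panel UMIs were of Calb1. Another held 7 Calb1 and 3 Fxyd2 UMIs of 13, another 3 Fxyd2 and 1 Calb1 of 5, and the last 3 Cldn7 of 6. Calb1 had UMIs in 41.7% of E14.5 members and also in 9.45% of the other E14.5 barcodes. Cdh16, Irx1 and Wnt9b had no UMI in members at E12.5, E13.5 or E14.5, which allows at most 20.4, 23.6 and 11.1 CPM (3 counts). In the E10.5 members they stood at 27.8, 11.7 and 17.96 CPM, near or below those limits at E12.5 and E13.5, so such levels were barely detectable at these 2 stages. Cldn7 had no UMI at E12.5 and E13.5 and 3 UMIs in 1 barcode at E14.5, against 168 CPM at E10.5. Emx2, which the gonad also expresses, stood at 166, 197, 150 and 167 CPM in later members and 170, 136, 98.4 and 90.9 CPM in the others.

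Single later barcodes were unlike the rest. An E11.5 member with 42562 UMIs held 178 nephric panel UMIs, with 43 of Fxyd2, 31 of Irx1, 30 of Cldn7 and 5 of Cdh16, and no supporting-lineage UMI. It accounts for all Cldn7 and Cdh16 UMIs of the E11.5 members and is the 1 later barcode of the nephric-duct-like cluster. Another E11.5 member had 11 Gata3 UMIs and 17 of the neural crest list, and no supporting-lineage UMI. At E14.5 a member with 13832 UMIs had 19 Wfdc2, 3 Cldn7 and 2 Lhx1 UMIs, with 3 supporting-lineage UMIs. An E12.5 member with 15754 UMIs held 7 of the 12 nephric panel UMIs of that stage, all of Cdh6, with UMIs of Pax8, Lhx1, Wfdc2 and Epcam and 3 supporting-lineage UMIs. It fell in the unnamed cluster 0. These barcodes were picked out after their values were seen.

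At E14.5 the endothelial list stood at 633 CPM in members against 93.6 CPM in the others, 6.76-fold (5.77 to 7.89), with all 8 genes detected, and 3.06-fold (2.34 to 3.94) without the barcode with most of its UMIs. Of its 171 UMIs, 110 and 31 were in 2 barcodes with 57251 and 55961 UMIs, which also held 6 and 7 Foxl2 UMIs. Another with 53152 UMIs held 25 endothelial and 10 Foxl2 UMIs. Of the kept barcodes with Cdh5 and Pecam1, 0, 0, 0, 1 and 3 were members from E10.5 to E14.5. Of the top-scored doublets at E14.5, 1 was a member. Whether these deep barcodes hold RNA of 2 cells was not tested.

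Barcodes with Pax8 and no UMI of Pax2 or of the other partners were compared as a like class, 420 in vivo. Wnt4 stood at 458, 338, 267 and 253 CPM in this class from E11.5 to E14.5, against 336, 306, 134 and 218 CPM in members, and Gata4 at 125, 107, 110 and 100.5 CPM. At E10.5 the class held 29 barcodes, with no UMI of Cdh16, Mal or Calb1, each present in the E10.5 members. A second class was that of the 2414 barcodes with the mesothelial gene Upk3b outside the members. Upk3b itself stood at 150 CPM in E13.5 members, on 19 UMIs in 4 of 7, against 29.4 CPM in the other E13.5 barcodes.

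In the induced cells of culture day 6, 27 of 7519 kept barcodes met the same rule (0.359%, 0.237 to 0.522%). Of these, 26 had Pax8, 4 Gata3, 2 Epcam, 1 Wfdc2 and none Lhx1. All 27 had 3 or more supporting-lineage UMIs, as did 79.1% of the other induced barcodes. In the 27, Wnt4 stood at 721 CPM and Wt1 at 794 CPM. Cdh16, Cldn7 and Mal had no UMI, which allows at most 14.52 CPM. Wnt4 and Wt1 were higher than in the later in vivo members (134 to 336 and 330 to 434 CPM). Cdh16 also had no UMI in the members of E12.5 to E14.5. With 1 library each these differences could not be tested.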

How the data were processed

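Droplet libraries (10x Chromium 3′ v2) of 5 in vivo stages and 1 induced culture were used, 1 per group. The deposited values are raw UMI counts, a gene by a barcode, made by the authors with Cell Ranger 3.0.2 on mm10, per the submitters' processing notes. They list 31053 genes. The filters leave 21102 of 21834 in vivo barcodes. No batch correction or doublet removal was applied. UMIs were summed over members and over the other kept barcodes of a library and given as CPM. Ratios have exact conditional binomial intervals, levels exact Poisson intervals and shares Clopper-Pearson intervals, at 95%. A sum of 0 was set to 3 counts. Genes were compared at 50 CPM or more in either sum and counted at 4-fold, only for classes of 20 barcodes or more, which E10.5 alone met. Members were clustered with scanpy 1.11.5 (10000 per barcode, log, 2000 variable genes, 30 components, 15 neighbours, Leiden resolution 0.5, seed 0). Named genes are the 10 largest ratios in each direction, without rule, mitochondrial, ribosomal, haemoglobin and clone-type genes, and genes of 19 gene lists and 16 marker lists. The members and lists were chosen with earlier results of these data known. The ratio and call steps were tested on simulated data. Shares, ratios and clusters were recomputed with other rules, filters, depths and resolutions. Gene positions are from the GENCODE annotation of GRCm38, the same assembly as mm10.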

Additional observations from a re-analysis of the deposited data

Results flagged for a closer look

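The ratio of a marker list in members over the other barcodes lay on the other side of 1 than at E10.5 for 5 lists at later stages, with intervals that do not reach 1, and these differences between stages were not tested. The nephrogenic mesenchyme list (Osr1, Eya1, Cited1 and others) was at 1.15 at E10.5. It stood at 0.0941 for E13.5 members and at 0.0825 for those of E14.5, on 1 and 3 member UMIs at the later stages. The podocyte list was at 0.677 at E10.5 and stood at 2.21 in both of the last stages, E13.5 and E14.5. The neural list was at 2.18 at E10.5, 0.1299 at E12.5 and 0.126 at E13.5, on 1 member UMI at each of the later stages. The coelomic epithelium list was at 0.497 at E10.5 and 2.83 at E13.5. The endothelium list was at 0.236 at E10.5. It was at 1.54 for E13.5 members, where 18 of the 26 UMIs were in 1 barcode, without which it was 0.590 (0.255 to 1.16). For those of E14.5 it was 6.76, and 3.06 without 1 barcode. The other barcodes of each library differ between stages too, so a ratio can move with either class.

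In the induced library, which enters no comparison between stages, 27 barcodes met the rule.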

How the results depend on the processing

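With 1 library per stage, nothing here measures biological spread. No paired analysis was possible because each stage holds 1 library. The planned comparisons of members between stages were not run, since the later stages hold fewer than 20 members.

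The shares depend on the rule. Requiring 2 Pax2 UMIs gave 0.719%, 0.0735%, 0.0308%, 0% and 0% from E10.5 to E14.5. Requiring 2 partner genes gave 1.45%, 0.0368%, 0.0616%, 0.0219% and 0.116%. Thinning to 3000 UMIs gave 0.934%, 0%, 0.0313%, 0.0450% and 0.0761%. As alternatives chosen after seeing the data, leaving out members with neural or muscle markers gave 1.58% at E10.5, and leaving out those with supporting-lineage markers gave 1.36%, 0.0735%, 0%, 0% and 0%. In the other 29 of 50 recomputed shares the value stayed inside its interval.

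Instead of 44 genes, 93 were higher with a filter of 20 CPM, 621 with 10 UMIs over both sums, 100 at 2-fold, 90 after thinning and 88 in the duct-like cluster alone (added). Instead of 6, the lower genes numbered 31, 184, 39, 40 and 60 in the same order. They numbered 20 with 2 Pax2 UMIs, 11 with 2 partner genes, 19 without top-scored doublets and 45 without neural or muscle members (added). Of the 20 named genes 16 were past 4-fold. Of their 220 recomputed ratios, 204 stayed on the same side of 4-fold, 12 moved past it, 4 fell short of it (Igf1 at -1.91 with 2 partner genes, and the 3 thinned values given above for Pf4, Cldn5 and Igf1) and 0 changed sign. At resolution 1 the largest parts of clusters 0 and 1 held 25.9% and 20.5% of members. Without the 1 barcode with most of its UMIs (added), the endothelial ratio at E13.5 fell from 1.54 to 0.590. Depth limits the later stages, where 0 UMIs allow up to 23.6 CPM.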
